A study of Rattus norvegicus with 8 samples.

Results

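The actin isoforms are 6 genes that encode the monomer of the actin filament in different tissues: Actb, Actg1, Acta2, Actg2, Acta1 and Actc1. They were found by their symbols and matched 7 of the 31699 rows of the expression table, because Actg1 stands on 2 rows. The family was chosen from measured values of these same 8 samples, namely the difference in TPM between the 2 groups, so the levels and folds of the 6 genes are a description and carry no test. In the filter on low values, 5 of the 7 rows had a mean TPM of at least 1 and entered the fit of 13103 genes, and Actc1 and the lesser Actg1 row did not.

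RNA-seq was measured in annulus fibrosus cells (AFCs) of Sprague Dawley rats, the fibroblast-like cells of the outer ring of the intervertebral disc. All samples were kept in medium with 10% serum and exposed to cyclic mechanical stretch (CMS), at 20% elongation and 0.5 Hz for 36 h according to the methods of the study. The 4 samples labelled Lv-Ctrl had received the lentiviral vector pLVX-shRNA-Puro and the 4 labelled Lv-Piezo1 had received pLVX-shRNA-Puro-Piezo1, at a multiplicity of infection of 20 for 24 h, to ask how loss of the stretch-activated channel Piezo1 alters the stretched cells. Each isolation of AFCs pooled 8 rats by the methods, and no unstretched or untransduced sample was analysed here. The methods describe the 4 samples of a group as biological repeats, which the labels give by number only. They also count cells of the same isolation under different treatments as a single repeat. The groups may therefore share isolations, and the main fit was not paired. In bulk RNA, fewer cells of a type and less RNA per cell cannot be told apart.

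Piezo1 itself went against the label. Its TPM was 31.1, 33.0, 26.7 and 29.5 in the samples labelled Lv-Ctrl and 38.1, 37.7, 40.2 and 41.4 in those labelled Lv-Piezo1, a log2 fold change of 0.38 ± 0.06 (SE, limma, Benjamini-Hochberg adjusted p = 8.6e-04). The value was smaller under other scalings of the samples, at 0.21 with median-ratio scaling and 0.26 with quantile normalization. The groups are therefore called by their labels throughout, and no direction below is read as an effect of losing Piezo1. The study reports that its shRNA was effective in a check made apart from these libraries, which was not analysed here. Sequencing depth cannot be read from TPM, so precision rests on the 4 samples of a group. Rises and falls counted here are calls by the rule given below. It called 4.91% of all genes tested as higher and 2.76% as lower. Of the 14 markers of annulus fibrosus and fibroblasts, 13 were tested and 3 fell, namely Col12a1, Dcn and Pdgfra. Under the fold threshold and without overlap, Fmod and Mkx were lower and Col1a1, Col1a2, Col3a1, Col5a1, Bgn, Scx and Thy1 higher. The groups did not overlap for 54.2% of all genes tested. The list had a summed TPM of 12018 to 13661 and then 15530 to 16656. Tnmd, a tendon and ligament marker, was between 0 and 0.08 TPM in every sample. Of 7 chondrocyte-like markers 4 were tested and 1 rose, and of 7 pericyte markers 5 were tested with 1 rise and 2 falls. Of 6 macrophage and leukocyte markers 2 were tested and 1 rose. This was Cd68, with means of 0.955 and then 12.3 TPM. Cd14 was at 20.6 to 27.9 TPM over all samples and was not called. The other 4 lay below 1 TPM in every sample, with Adgre1 listed at 0. All 7 endothelial markers lay below 1 TPM in every sample.

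Actin is built into filaments that carry tension, and mammals make it from a small family of genes whose proteins are nearly identical. Actb and Actg1 encode the cytoplasmic actins of all cells. Acta2 and Actg2 encode the actins of vascular and enteric smooth muscle, and Acta2 is also the usual marker of myofibroblasts, the contractile form of fibroblasts. Acta1 and Actc1 encode the actins of skeletal and cardiac muscle. Many of these genes are switched on through serum response factor (Srf), which binds a motif named the CArG box, together with the cofactors Mrtfa and Mrtfb, which are held by unpolymerised actin, and Myocd, which is characteristic of smooth and cardiac muscle.

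TPM corrects for transcript length, so levels can be set side by side between genes. In the samples labelled Lv-Ctrl the order by mean TPM was Actb, Actg1, Acta2, Acta1, Actg2 and Actc1, and in those labelled Lv-Piezo1 it was Actb, Actg1, Acta2, Actg2, Acta1 and Actc1. Acta1 and Actg2 overlapped in the former group, whereas no neighbouring isoforms overlapped in the latter. Because the coding sequences are so alike, reads may be split or shared between isoforms in the counting done by the authors, and the values of the low isoforms are uncertain to that extent. The strand setting of that counting is not given in the sources used here.

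Actb, the beta-cytoplasmic actin, was the most abundant isoform. Its TPM was 3279, 3216, 3072 and 3015 in the samples labelled Lv-Ctrl, and 5794, 5724, 5816 and 5752 in those labelled Lv-Piezo1. The groups did not overlap, and the second was 1.83-fold the first, at 5771 ± 41.4 against 3145 ± 123 (mean ± SD, n = 4). Among all rows of a sample Actb ranked 27 to 37 in the first group and 10 to 11 in the second. Its log2 fold change of 0.88 ± 0.03 (SE) lay under the fold threshold of 1.

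Actg1, the gamma-cytoplasmic actin, followed the same pattern a step lower. The samples labelled Lv-Ctrl held 2195, 2228, 2105 and 2151 TPM, and those labelled Lv-Piezo1 held 3528, 3528, 3570 and 3541 TPM. All 4 values of the second group were above all of the first, with means of 3542 ± 19.7 and 2170 ± 53.7, a 1.63-fold difference and a log2 fold change of 0.71 ± 0.03 (SE). The other row with the symbol Actg1, ENSRNOG00000053452 beside the main ENSRNOG00000036701, was at 0.02, 0.52, 0 and 0 TPM and then 0.73, 2.05, 0 and 0.70 TPM. These values overlapped between the groups and were too low to enter the fit.

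Acta2, the smooth muscle alpha-actin (ENSRNOG00000058039), differed by far more than the cytoplasmic pair. Its TPM was 50.3, 51.8, 54.0 and 48.7 in the samples labelled Lv-Ctrl and 1359, 1369, 1366 and 1284 in those labelled Lv-Piezo1. The means were 51.2 ± 2.27 and 1344 ± 40.5 TPM, a 26.3-fold difference and a log2 fold change of 4.69 ± 0.04 (SE). In rank among the rows of a sample it moved from between 2350 and 2589 to between 99 and 108.

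Actg2, the smooth muscle gamma-actin (ENSRNOG00000029401), stood at 1.68, 0.86, 1.25 and 1.69 TPM across the samples labelled Lv-Ctrl and at 22.8, 26.4, 22.3 and 21.6 TPM in those labelled Lv-Piezo1. The groups did not overlap, and the means of 1.37 ± 0.397 and 23.3 ± 2.14 TPM were 17.0-fold apart. Its log2 fold change on the log2(TPM + 1) scale was 3.37 ± 0.13 (SE), which understates the ratio of a gene this low. The ratio of Acta2 to Actg2 was 40.5 ± 14.7 in the first group and 58.0 ± 4.20 in the second, and these ratios overlapped.

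Acta1, the skeletal muscle actin (ENSRNOG00000017786), was set apart by 1 sample. It was at 2.14, 22.05, 1.74 and 1.59 TPM across the samples labelled Lv-Ctrl and at 9.83, 8.51, 7.94 and 8.28 TPM in those labelled Lv-Piezo1. Replicate 2 of the first group lay above every other sample, at 12.1 times the mean of the other 3 samples of its group, so that the groups overlapped. The means were 6.88 ± 10.1 and 8.64 ± 0.827 TPM, with a log2 fold change of 1.01 ± 0.63 (SE). Without that sample the first group held 1.82 ± 0.284 TPM (n = 3), the second was 4.74-fold higher, and the log2 fold change was 1.77 ± 0.10 (SE).

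Actc1, the cardiac actin (ENSRNOG00000008536), was listed at 0 in all 4 samples labelled Lv-Ctrl and at 0, 0.05, 0.13 and 0.07 TPM in the other group, so no fold is given. Of the 11 markers of cardiac muscle, 9 lay below 1 TPM in every sample, and the 1 that was tested did not pass the threshold.

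**Figure D1:**
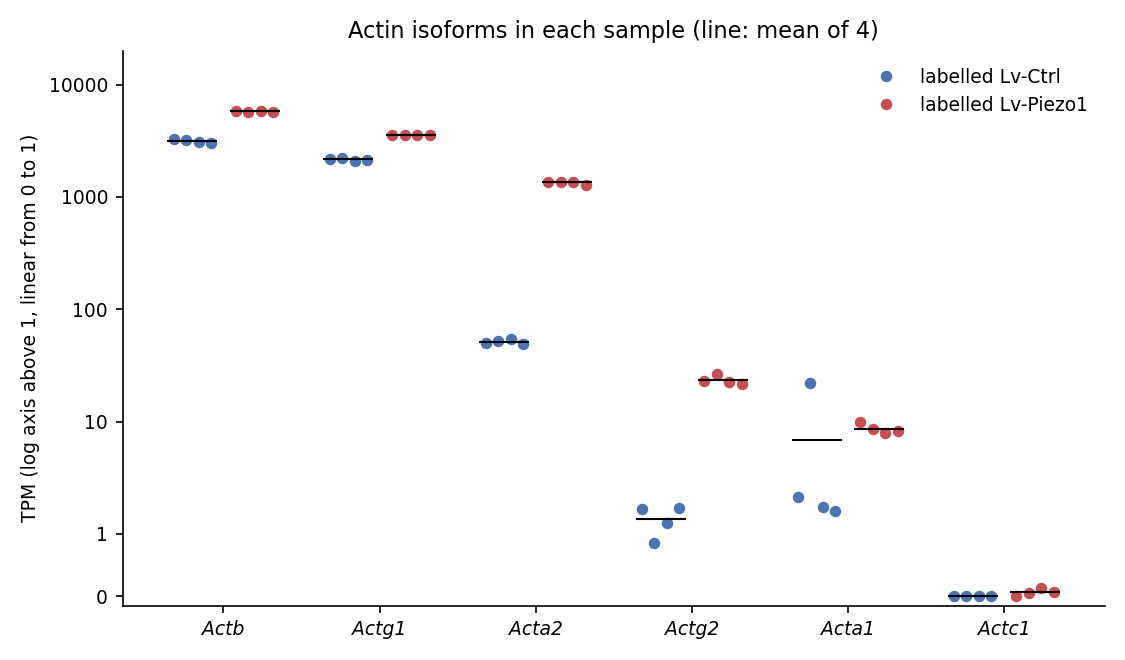
TPM of the 6 actin isoforms on the vertical axis, logarithmic above 1 and linear below, with 1 point per sample and a line at the mean of the 4 samples labelled Lv-Ctrl (blue) or Lv-Piezo1 (red). The 2 groups are separated for Actb, Actg1, Acta2 and Actg2, and a single blue point at 22.05 TPM lies above all red points of Acta1.

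Calls needed a limma Benjamini-Hochberg adjusted p below 0.05 and a log2 fold change of 1 or more in size. By that rule 2 of the 5 isoform rows tested were called, Acta2 and Actg2, both higher in the samples labelled Lv-Piezo1. The rule called 7.67% of all 13103 genes tested, 4.91% as higher and 2.76% as lower. The groups did not overlap for 4 of the 5 rows, against 54.2% of all genes tested. As the family was chosen on this difference, nothing is read from these shares. The median log2 fold change of all tested genes was 0.14, and median-ratio scaling moved it to -0.02. Under that scaling the log2 fold change was 0.70 for Actb, 0.53 for Actg1, 4.51 for Acta2, 3.23 for Actg2 and 0.87 for Acta1, so that each isoform kept its direction.

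The isoforms were also summed within each sample. No single scaling factor per sample can alter the share of each isoform in that sum. The sum itself, and its difference between the groups, do depend on the scaling. The summed actin TPM was 5528, 5519, 5234 and 5217 in the samples labelled Lv-Ctrl and 10714, 10658, 10782 and 10608 in those labelled Lv-Piezo1. The second group was thus 1.99-fold the first, at 10690 ± 75.0 against 5375 ± 172, and actin transcripts went from 0.537% to 1.07% of all TPM. Actb made up 49.4% of this difference in TPM, Actg1 25.8%, Acta2 24.3%, Actg2 0.412% and Acta1 0.0331%.

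The cytoplasmic actins took a smaller share of the sum in the samples labelled Lv-Piezo1, although their own TPM was higher. Actb took 58.5 ± 0.652% of the summed actin TPM across the samples labelled Lv-Ctrl and 54.0 ± 0.222% in those labelled Lv-Piezo1. Actg1 took 40.4 ± 0.631% and then 33.1 ± 0.186%. Acta2 went from 0.953 ± 0.0539% to 12.6 ± 0.324%, and Actg2 from 0.0256 ± 0.0076% to 0.218 ± 0.0204% (n = 4 for each). For these 4 isoforms the shares did not overlap between the groups, whereas the share of Acta1 did, at 0.125 ± 0.183% and 0.0808 ± 0.0077%. The direction of that last difference turned without the Lv-Ctrl replicate 2, when the first share was 0.0341 ± 0.0042% (n = 3).

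The 4 muscle actins together went from 1.10 ± 0.173% to 12.9 ± 0.340% of the sum. Acta2 was 69.3% to 94.8% of the muscle actin TPM in the samples labelled Lv-Ctrl, the lowest value being that of replicate 2, and 97.5% to 97.8% in those labelled Lv-Piezo1. Set against Actb in the same sample, Acta2 was at 1.63 ± 0.0936% and then 23.3 ± 0.683%. The cytoplasmic pair did not move in step: the ratio of Actb to Actg1 was 1.49, 1.44, 1.46 and 1.40 in the first group and 1.64, 1.62, 1.63 and 1.62 in the second, with no overlap.

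**Figure D2:**
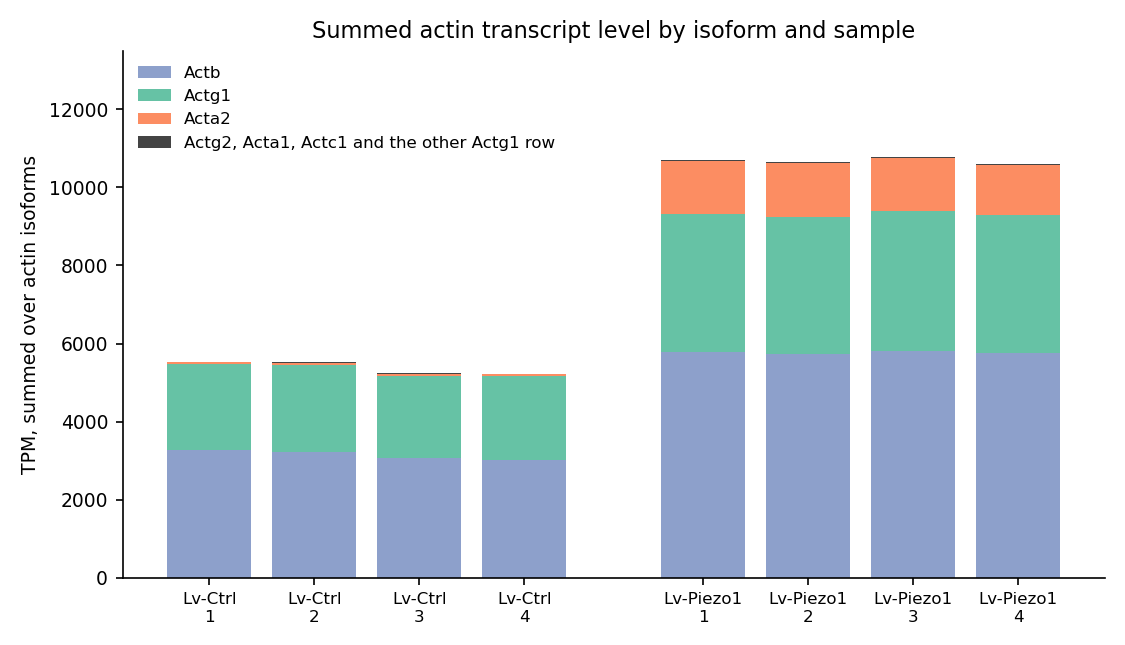
Summed TPM of the actin rows (vertical axis, from 0) in each of the 8 samples, stacked by isoform. The bars of the samples labelled Lv-Ctrl end between 5217 and 5528 TPM and those labelled Lv-Piezo1 between 10608 and 10782 TPM, where Acta2 is a visible block of 12.1% to 12.8% and the other muscle actins are a thin line.

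The sequence before the start of each gene was read for the CArG box, since Srf acts through it. RefSeq promoters of the assembly GRCr8 were matched by symbol for 5 of the 6 isoforms, Actb having no entry. The start given for Actg2 lies 10340 bases inside the span of its gene, so its sequence is not shown. The 250 bases before the start of the other isoforms are given 5′ to 3′, with exact CArG boxes, CArG boxes with 1 base of the A/T core changed to G or C, and the letters TATAA in capitals:
Acta2, chr1:241172504-241172753, minus strand: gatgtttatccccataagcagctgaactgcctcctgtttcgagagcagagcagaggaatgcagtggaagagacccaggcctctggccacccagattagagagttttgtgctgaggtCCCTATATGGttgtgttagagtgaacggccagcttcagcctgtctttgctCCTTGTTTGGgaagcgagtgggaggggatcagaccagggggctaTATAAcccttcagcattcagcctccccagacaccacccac
Acta1, chr19:68784195-68784444, minus strand: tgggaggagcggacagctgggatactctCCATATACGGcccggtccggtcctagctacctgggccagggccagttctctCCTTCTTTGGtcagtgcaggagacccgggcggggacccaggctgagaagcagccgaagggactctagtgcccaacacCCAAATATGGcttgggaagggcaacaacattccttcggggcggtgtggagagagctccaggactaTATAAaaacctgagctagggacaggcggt
Actc1, chr3:121271828-121272077, minus strand: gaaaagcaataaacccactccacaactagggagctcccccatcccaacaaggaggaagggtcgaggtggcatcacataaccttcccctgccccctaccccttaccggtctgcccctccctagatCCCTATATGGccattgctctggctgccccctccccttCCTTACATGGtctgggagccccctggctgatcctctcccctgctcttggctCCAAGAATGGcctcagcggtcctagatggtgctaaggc
Actg1, chr10:106120952-106121201, minus strand: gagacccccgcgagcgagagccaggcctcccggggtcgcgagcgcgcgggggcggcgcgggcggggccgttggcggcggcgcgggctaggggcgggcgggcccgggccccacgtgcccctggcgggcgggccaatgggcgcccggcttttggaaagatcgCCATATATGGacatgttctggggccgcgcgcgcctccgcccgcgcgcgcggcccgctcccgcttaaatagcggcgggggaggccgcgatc

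The CArG box is a run of A and T bases between a pair of cytosines and a pair of guanines, it was searched on both strands, and a core such as that of Actg1 can share letters with a TATA motif. Acta2, the isoform with the greatest difference in TPM fold, held no exact box in this window. It held CCCTATATGG from -134 to -125 and CCTTGTTTGG from -84 to -75, each with 1 core base changed, and TATAA from -40 to -36, positions being counted back from the transcript start. Acta1 held an exact box, CCAAATATGG, from -94 to -85, along with 2 changed boxes and a TATAA from -29 to -25. Actc1, which was hardly detected, held 3 changed boxes, of which 1 had the same letters as the distal box of Acta2. Actg1 held 1 exact box, CCATATATGG, from -90 to -81, in a window that was 79.2% G and C where the median promoter was 51.2%. Of all 33469 RefSeq promoters searched over the same length, 1.50% held an exact box, 6.84% a changed one, 8.08% either form, and 8023 held TATAA. These matches describe letters only and no binding was measured.

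**Figure D3:**
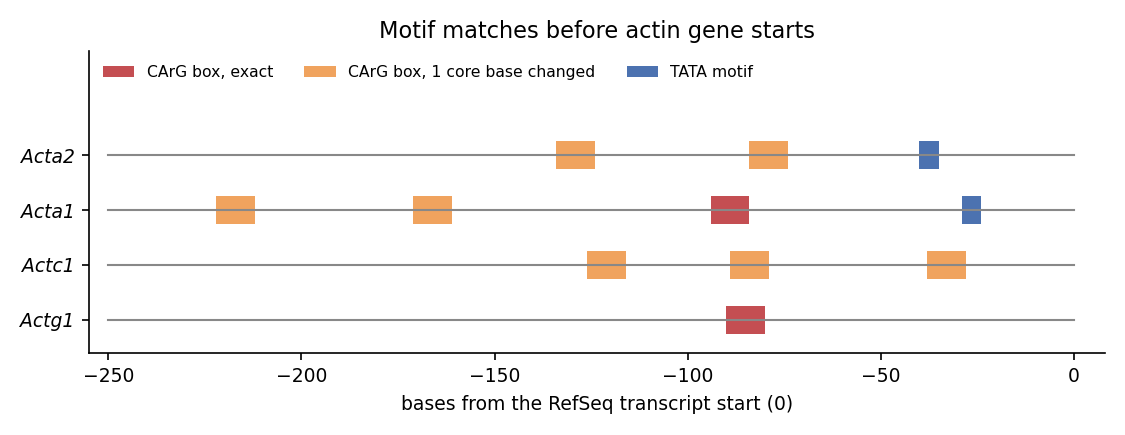
Positions of CArG boxes and TATA motifs in the 250 bases before the transcript start (horizontal axis, in bases) of 4 actin genes, 1 line per gene. Exact boxes (red) stand at -90 in Actg1 and -94 in Acta1, and Acta2 and Actc1 hold only changed boxes (orange).

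The regulators of actin were taken from 7 lists with 120 symbols in all, of which 113 were in the table and 93 were tested. Across them 6 genes rose and 2 fell in the samples labelled Lv-Piezo1, or 8.60% of those tested, near the 7.67% of all genes. The excess of rises rested on the scaling and the filter, with 4 rises and 3 falls under median-ratio scaling, 3 and 3 under quantile normalization, and 2 and 2 among genes with a mean TPM of 5 or more. Their median log2 fold change was 0.22, beside 0.14 for all genes tested.

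Among the transcription factors and cofactors of actin genes, 21 of 27 in the table were tested, 2 rose and 1 fell. The rule called 4.91% of all genes tested as higher and 2.76% as lower. The median log2 fold change of the list was 0.36. Srf was at 15.6, 14.3, 13.6 and 13.9 TPM across the samples labelled Lv-Ctrl and at 24.2, 22.2, 22.9 and 24.7 TPM in those labelled Lv-Piezo1. Its log2 fold change was 0.68 ± 0.06 (SE, limma, Benjamini-Hochberg adjusted p = 8.8e-06), with no overlap but under the fold threshold. Mrtfa had means of 29.3 and 43.8 TPM and a log2 fold change of 0.57 ± 0.04 (SE, limma adjusted p = 7.0e-06), likewise under the threshold.

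Myocd rose from 0.82 ± 0.173 to 3.01 ± 0.0843 TPM, a log2 fold change of 1.14 ± 0.10 (SE, limma adjusted p = 1.6e-05), and missed the fold threshold under quantile normalization (0.93). Mrtfb had means of 1.76 and 1.94 TPM and did not pass (log2 fold change 0.12 ± 0.18 SE, limma adjusted p = 0.60). Gata6, a zinc finger factor of smooth muscle and heart, fell from 8.26 ± 0.641 to 3.27 ± 0.393 TPM (log2 fold change -1.12 ± 0.09 SE, limma adjusted p = 5.4e-06). Its relative Gata4, picked once its values were known, rose from 0.210 to 1.99 TPM (limma adjusted p = 3.5e-05). The myogenic factors Myod1, Myog and Myf5 were listed at 0 in every sample.

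Of the formins, leiomodins and other nucleators, which start new filaments, 13 of 17 in the table were tested and 4 rose. Over all genes tested, 4.91% were called as higher. Lmod1, the leiomodin of smooth muscle, was at 14.5, 12.5, 12.7 and 13.8 TPM across the samples labelled Lv-Ctrl and at 57.5, 53.7, 57.1 and 58.5 TPM in those labelled Lv-Piezo1. The groups lay far apart, with a log2 fold change of 2.01 ± 0.05 (SE, limma adjusted p = 7.8e-09). Diaph3, a formin, rose from a mean of 2.97 to one of 7.43 TPM (log2 fold change 1.09 ± 0.12 SE, limma adjusted p = 5.3e-05), and missed the fold threshold under median-ratio scaling (0.95) and quantile normalization (0.89). Lmod3 and Cobl, likewise picked once their values were known, rose from 1.02 to 6.71 TPM (limma adjusted p = 2.2e-06) and from 0.590 to 2.26 TPM (limma adjusted p = 7.0e-05). Fmn1, picked in the same way, was at 32.0 to 39.9 TPM and then 16.1 to 18.2 TPM, and its log2 fold change of -0.99 ± 0.08 (SE) missed the fold threshold.

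Few genes were called among those that branch, fold, sever or cap actin, where 7.67% of all genes tested were called. Others lay under the fold threshold without overlap, and the groups did not overlap for 54.2% of all genes tested. Picked once their values were known, Dstn went from 1743 to 1125 TPM and Actr3 from 178 to 281 TPM. Likewise, Arpc2 went from 513 to 673 TPM and Arpc3 from 557 to 457 TPM. None of the 9 tested genes of the Arp2/3 complex, which branches filaments, was called, although all 9 were tested at a summed TPM of 2502 to 2582 and then 2843 to 2972. None of the 16 tested genes of actin folding and N-terminal processing was called, with a median log2 fold change of 0.09. Of 22 tested genes of monomer binding, severing and capping, 1 was called. This was Scin, the calcium-dependent severing protein scinderin, which fell from 50.3 ± 2.78 to 5.22 ± 0.451 TPM (log2 fold change -3.05 ± 0.07 SE, limma adjusted p = 2.1e-09).

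The 4 tropomyosins, which lie along the filament, had log2 fold changes of 0.54 for Tpm1, 0.34 for Tpm2, 0.73 for Tpm3 and 0.45 for Tpm4, none past the fold threshold. Of 16 other actin-like and actin-related proteins, 8 were tested and none was called. A row without a symbol that is described as actin gamma 1 propeptide-like, ENSRNOG00000069875, was at 47.3 ± 8.53 and then 80.4 ± 7.70 TPM, a log2 fold change of 0.76 ± 0.12 (SE) under the fold threshold, beside 0.71 for Actg1. Whether its reads came from Actg1 was not tested. Actl6a, an actin-like subunit of chromatin remodelling complexes, was at 19.9 and 25.0 TPM, Actl10 was at 1.18 and 1.53 TPM, and Actbl2 was listed at 0 throughout.

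**Figure D4:**
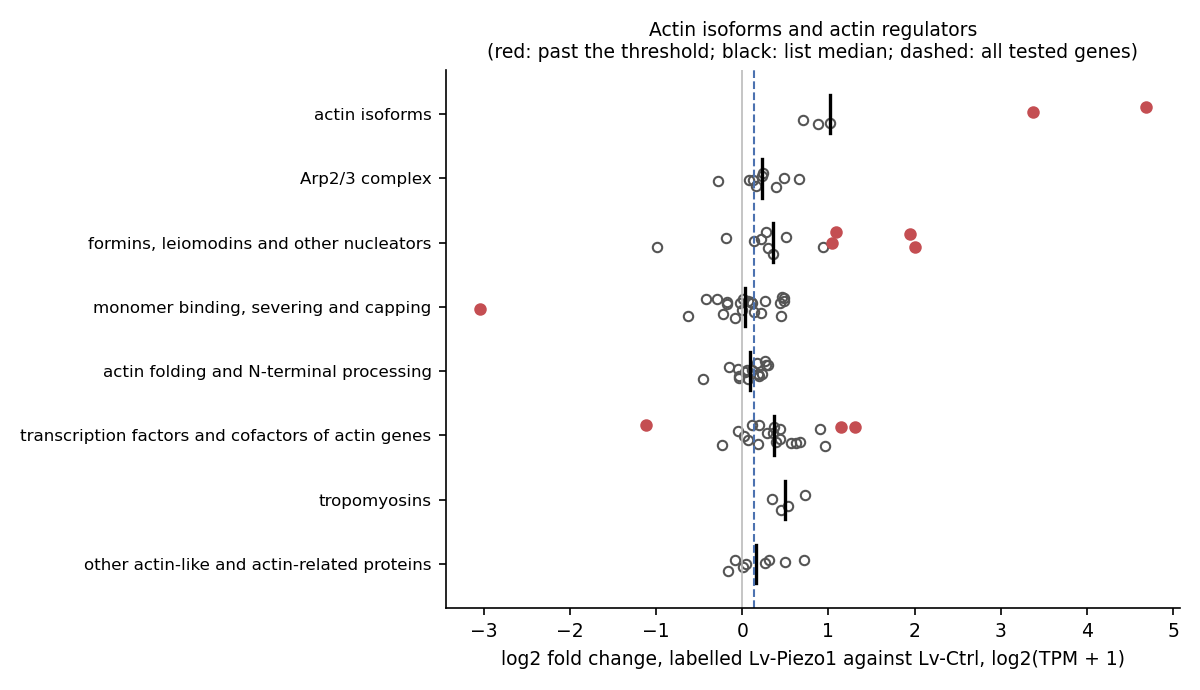
Log2 fold change on the log2(TPM + 1) scale (horizontal axis, samples labelled Lv-Piezo1 against Lv-Ctrl) of the 5 tested actin isoforms and of 93 tested regulators in 7 lists, 1 point per gene, filled red where past the threshold. Acta2 at 4.69 and Actg2 at 3.37 lie to the right of every regulator, Scin at -3.05 lies furthest left, and the dashed line marks the median of 0.14 over all genes tested.

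The smooth muscle actins were higher together with other genes of that contractile program, in a list chosen with earlier results of these data known. Of 8 smooth muscle markers, all were tested and 6 rose, where 4.91% of all genes tested were called as higher. The list had a summed TPM of 491 to 513 in the samples labelled Lv-Ctrl and 3773 to 3918 in those labelled Lv-Piezo1. Its median log2 fold change was 2.25. Tagln, which encodes the actin-binding protein transgelin, went from 219 ± 4.64 to 2730 ± 41.2 TPM, and Myh11, the smooth muscle myosin heavy chain, from 1.80 ± 0.219 to 47.9 ± 1.31 TPM. No marker of the list was at 0. Smtn and Synpo2 did not pass the fold threshold. The called pericyte markers went both ways. Mcam rose from 7.17 to 62.2 TPM, while Kcnj8 fell from 326 to 39.1 TPM and Abcc9 from 73.7 to 12.3 TPM. The part of a change in cell makeup in the levels of Acta2 and Actg2 was not tested.

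The single high value of Acta1 stood beside other skeletal muscle genes in the same sample. Of 15 skeletal muscle markers 14 were in the table. Among the 4 samples labelled Lv-Ctrl, 10 of these were highest in replicate 2 and 6 were there at more than 5 times the mean of the other 3 samples of the group. These counts include genes near 0, such as Myh2 at 0.25 against 0.02 to 0.07 TPM and Myh3 at 0.01 against 0 TPM. Neb was nearly tied, at 0.22 against 0.12 to 0.21 TPM. Markers of other lists, such as Col1a1, were also highest there, and the share over all genes was not computed. The summed TPM of the list was 57.0 in that sample, 14.0, 13.9 and 13.8 in the others labelled Lv-Ctrl, and 16.2 to 20.2 in those labelled Lv-Piezo1. Ckm, the creatine kinase of muscle, was at 1.93, 13.99, 1.38 and 1.31 TPM across the samples labelled Lv-Ctrl, and Mylpf, a light chain of fast myosin, at 0.58, 8.98, 1.24 and 1.99 TPM. Myog and Myod1 were listed at 0.

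In the samples labelled Lv-Piezo1 Acta1 was at 7.94 to 9.83 TPM, and the skeletal muscle list was mixed when set against the other 3 samples labelled Lv-Ctrl. Tnnt3 was at 10.24 to 11.79 TPM against 6.93 to 8.09 TPM, and Tnni2 at 0.75 to 1.19 TPM against 0.29 to 0.63 TPM, both without overlap. Mylpf, at 1.75 to 3.60 TPM against 0.58 to 1.99 TPM, Ckm, at 1.19 to 2.18 TPM against 1.31 to 1.93 TPM, Tnnc2, at 0 to 1.07 TPM against 0.85 to 1.06 TPM, and Myh4, at 0.40 to 0.64 TPM against 0.50 to 0.59 TPM, overlapped. Actn3 was at 0.63 to 0.98 TPM against 1.33 to 1.52 TPM, and the other 7 markers in the table were below 1 TPM in every sample. Of the skeletal muscle list 7 were tested and none was called by limma. The part of these genes in the level of Acta1 was not tested.

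**Figure D5:**
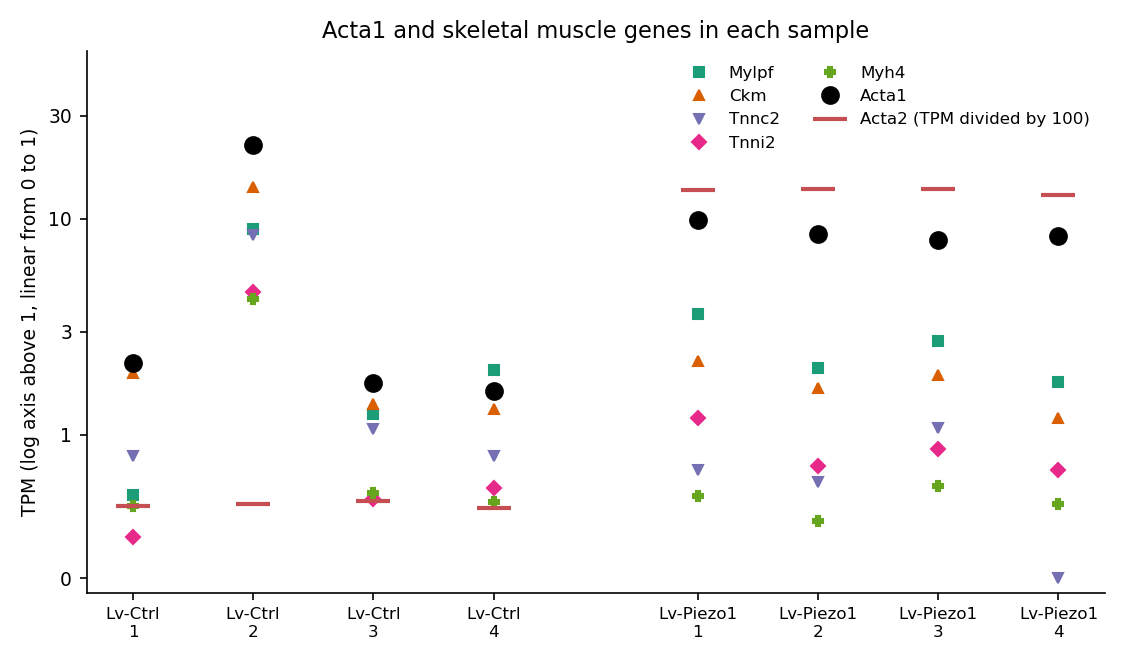
TPM of Acta1 and of 5 skeletal muscle genes (vertical axis, logarithmic above 1 and linear below) in each of the 8 samples, with Acta2 divided by 100 as a red bar. All 6 genes peak in Lv-Ctrl replicate 2, where Acta1 is at 22.05 TPM and Acta2 at 51.8 TPM. The 5 were picked from the 6 markers at more than 5 times the mean of the other Lv-Ctrl samples there, so their peak follows from the choice. In the samples labelled Lv-Piezo1 Acta1 is at 7.94 to 9.83 TPM and the 5 shown are at 0 to 3.60 TPM. Tnnt3, a marker not shown, is at 10.24 to 11.79 TPM in those samples.

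The genes whose profile was most like that of each isoform were sought over the 8 samples, by the root mean square difference of centred log2(TPM + 1) values among 11581 genes with a symbol. For Actb these were Nkd2 (difference 0.024), Plpp1 (0.031) and RGD1305464 (0.034), and for Actg1 they were Fam149a (0.017), Qsox1 (0.018) and Grn (0.020). Acta2 stood nearest to RGD1565462 (0.103), Col4a3 (0.105) and Prss35 (0.173), and Actg2 to Igfbp2 (0.136), Serpinb1a (0.186) and Rgs16 (0.186). Several of these were low in the samples labelled Lv-Ctrl, where the added 1 shrinks the fold, so a close profile need not be an equal fold. Col4a3 had means of 0.335 and 34.5 TPM, and Serpinb1a of 0.390 and 15.5 TPM. The nearest to Acta1 were Mylpf (0.624), Tnni2 (0.685) and Ido2 (0.686), so that Acta1 had no neighbour as close as the other isoforms had. In Lv-Ctrl replicate 2, where Acta1 was highest, these were at 8.98, 4.57 and 4.21 TPM, against Lv-Ctrl means of 3.20, 1.51 and 2.08 TPM. Their log2 fold changes were 0.11, -0.12 and 1.64, beside 1.01 for Acta1. All of these profiles share the 8 samples and their 2 groups.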

How the data were processed

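RNA was sequenced in 8 AFC samples, 4 per group, grouped by the sample labels. Per the methods, reads of low quality were removed, HISAT2 did the mapping to the rat genome and StringTie the transcript assembly. The authors deposited TPM per gene with 2 decimals. The methods of the study name FPKM and DESeq, and the processing notes of the submitters list mm10 and DESeq2 although the identifiers are of rat. Since TPM holds no counts, count models were not used, and depth is unknown.

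Values were transformed to log2(TPM + 1) for the 13103 rows with a mean TPM of at least 1 and compared with limma 3.58.1 in R 4.3.3 (moderation with a trend, Benjamini-Hochberg adjustment, all 8 samples, no block). Calls needed an adjusted p below 0.05 and a log2 fold change of 1 or more in size. The script was tested on simulated data. Shares were computed within each sample. Members and gene lists were chosen with earlier results of these data known. Named regulators were, per list, up to 3 called rises and 3 falls whose mean TPM reached 5 and whose groups did not overlap, along with Srf, Myocd, Mrtfa and Mrtfb, which were named whatever their values. Other actin rows were named at a mean TPM of at least 1, and the 3 nearest profiles were named for each tested isoform. Alternatives were another pseudocount, other filters, scalings, moderation without a trend, a block and each sample left out. Same-numbered samples did not deviate together (correlations of -0.058 to -0.012), so the numbers were not taken to pair samples. Whether samples are paired by isolation under other numbers cannot be told from this. The columns of group means were not used. Promoters came from RefSeq (GRCr8).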

Additional observations from a re-analysis of the deposited data

Results flagged for a closer look

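Within groups of 4 samples, the highest or lowest sample was set apart from the rest by Dixon's criterion in 11 of 72 groups. The 72 include Actc1 and its share in the samples labelled Lv-Ctrl, where all values were 0 and the criterion could not be applied. Chance sets apart about 1 in 20 where groups are independent. The 72 all come from the same 8 samples, and many are sums, shares or ratios of the same isoforms. Whether 11 is more than chance gives therefore cannot be judged.

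In the Lv-Ctrl replicate 2, Acta1 was high at 22.05 TPM, and so were its shares of the summed actin TPM (0.400%) and of the muscle actin TPM (29.5%). Acta2 was accordingly low there as a share of the muscle actins, at 69.3%. The lesser Actg1 row was high in the same sample at 0.52 TPM. In the Lv-Piezo1 replicate 4, Acta2 was low at 1284 TPM, and with it the muscle actin sum at 1314 TPM and the sum of Acta2 and Actg2 at 1305 TPM. In the Lv-Piezo1 replicate 2, Actg2 was high as a share of the muscle actins, at 1.88%, and Myocd was low at 2.88 TPM. Gata6 was low in the Lv-Ctrl replicate 3, at 7.30 TPM.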

How the results depend on the processing

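The direction of the 5 tested isoforms held under every alternative run. Median-ratio scaling gave log2 fold changes of 0.70 for Actb, 0.53 for Actg1 and 4.51 for Acta2, and quantile normalization gave 1.01 for Actb, which then passed the fold threshold, and 0.74 for Actg1. A pseudocount of 0.1 gave 4.03 for Actg2. Regulators that rose and fell numbered 2 and 2 with a mean TPM of at least 5 (81 genes tested), 4 and 3 under median-ratio scaling and 3 and 3 under quantile normalization, against 6 and 2. Diaph3 missed the fold threshold under median-ratio scaling (0.95) and quantile normalization (0.89), as did Myocd under the latter (0.93). Mrtfb, which was not called under any of them, turned to -0.095 under quantile normalization and ran from -0.041 (without the Lv-Ctrl replicate 3) to 0.22 with each sample left out. With other actin-like rows in the sum, Actb took 57.8% and 53.4% and Actg1 32.8% in the samples labelled Lv-Piezo1. With each sample left out in turn, log2 fold changes ranged from 0.86 to 0.90 for Actb, 0.69 to 0.72 for Actg1, 4.67 to 4.71 for Acta2, 3.26 to 3.44 for Actg2 and 0.72 to 1.77 for Acta1. The highest value for Acta1, and 3 called isoforms in place of 2, came without the Lv-Ctrl replicate 2. Of the regulators, 5 to 6 rose and 2 to 3 fell. The share of Acta2 stayed between 0.927% and 0.967% and between 12.5% and 12.7%, and that of Acta1 in the samples labelled Lv-Ctrl ran from 0.0341% (without replicate 2, which put it below the 0.0808% of the other group) to 0.157%. Over all genes, the share of calls that were higher was 64.1%, against 51.1% under median-ratio scaling and 49.4% under quantile normalization, and the causes were not tested. With the replicate block, 2 isoforms, 6 regulators higher and 2 lower were called, as without it, and the block gave 1004 calls over all genes against 1005. No Lv-Ctrl sample correlated best with its own number. With TPM alone, the depth behind the low values of Actg2, Acta1, Actc1 and the lesser Actg1 row is unknown.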
